A study of Homo sapiens with 8 samples.

Results

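Divergent promoter transcripts are long noncoding RNAs that start beside the promoter of a coding gene and run away from it on the opposite strand. They were taken here as every gene of the deposited count table whose identifier maps to a symbol ending in -DT, and each was read with the coding gene in the first part of its symbol. The rule gave 583 genes of the 80311 in the table, with 582 distinct symbols because TNFRSF10A-DT has 2 entries. All 583 coding genes were found, 582 by name and 1 by an older symbol, and all are annotated as protein-coding.

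RNA polymerase II starts in both directions at most active promoters that are rich in CG. In the upstream direction transcription usually ends early, through the nuclear cap-binding complex, the Integrator complex and early cleavage and polyadenylation, and the nuclear RNA exosome degrades most of the product. In the coding direction U1 snRNP, which binds splice-site sequences, protects the transcript from early cleavage. MEPCE, the protein that the siRNA targets, caps and stabilises the 7SK RNA, which holds the elongation kinase P-TEFb in an inactive complex.

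The 8 libraries come from U2OS human osteosarcoma cells, an established line, in 4 groups with 2 libraries each. U2OS-Flp-In-TREx cells, called Flp-In here, carry an integration site for inducible transgenes and were grown with Zeocin and Blasticidin. U2OS- AiD-DiVA AsiSI -ER cells, called AsiSI here, carry the AsiSI restriction enzyme fused to an estrogen receptor domain and were grown with G418. In each line 1 group received siNC, the control siRNA, and the other siMePCE, given at 0 h and again at 48 h, and all cells were lysed at 96 h. Both AsiSI groups, siNC included, also received 300 nM 4-hydroxytamoxifen (4-OHT) from 92 h, for 4 h in all, which sends the enzyme to the nucleus to cut DNA at its sites. No label gives 4-OHT to Flp-In cells, so the line and the drug cannot be told apart in any comparison between the lines. Whether the 2 libraries of a group are separate cultures is not stated, and p-values therefore cover only the spread between these libraries. Total RNA was sequenced after removal of ribosomal RNA.

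Library totals ran from 41431776 to 53695626 counts. MEPCE had 1712 and 1676 counts in the Flp-In siNC libraries and 264 and 234 in the siMePCE libraries, and in AsiSI cells 1405 and 1542 against 162 and 102. MEPCE itself has no -DT gene in the table. Of the mesenchymal and osteoblast markers, VIM (610 to 1273 CPM, counts scaled to 1000000 per library), SPARC (268 to 483), CDH2 (90.8 to 167), RUNX2 (29.2 to 44.8) and COL1A1 (24.6 to 111) were present in all libraries, whereas the collagen gene COL1A2 was near 0 (0.048 to 0.818). Of the markers of other cell types, CD3E (T cells) was at most 0.130, ALB (liver) at most 0.521 and KRT5 (epithelium) at most 1.12 CPM. PTPRC (blood, 1.08 to 7.57), EPCAM and CDH1 (epithelium, 2.39 to 6.68 and 2.07 to 6.45) had counts in all libraries, and HBB (red cells) was at 1.74 to 3.28 in Flp-In and 0 to 0.037 CPM in AsiSI cells. These 4 overlap other genes with 0.261 to 11.6 times their mean count, and their part in the results was not tested. Mitochondrial genes took 5.23% to 5.91% of the counts in siNC libraries and 8.24% to 10.6% in siMePCE libraries, and the part of this shift in the results was not tested.

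Sequences between the start of a divergent transcript and the start of its coding gene are short and rich in G and C. For 408 pairs both starts were found in the RefSeq promoter table (GRCh38.p14), with a median of 126 bases between them. The stretches below belong to 4 pairs whose divergent transcript fell with siMePCE and 3 whose transcript rose, and they are shown because they are the whole DNA between the 2 starts. Each is written 5′ to 3′ on the coding gene's strand, so the divergent transcript runs to the left. Capitals mark matches on either strand to GGGCGG (the GC box), CCGGAAG (an ETS factor core), CCAAT (the CCAAT box), TATAAA (the TATA box), TGACGTCA (the cAMP response element) or TGACTCA (the AP-1 element), and neighbouring matches can overlap. The transcripts that fell lie beside CENATAC (chr11:118998003-118998137, plus strand), TMCC1 (chr3:129893712-129893870, minus), RNASEH1 (chr2:3558334-3558385, minus) and SPOPL (chr2:138501696-138501769, plus). Those that rose lie beside TBC1D22A (chr22:46762529-46762649, plus), USP38 (chr4:143184862-143184916, plus) and NUP93 (chr16:56729999-56730128, plus).
CENATAC-DT: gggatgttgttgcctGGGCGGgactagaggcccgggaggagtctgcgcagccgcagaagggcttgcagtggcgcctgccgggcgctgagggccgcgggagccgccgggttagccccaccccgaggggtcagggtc
TMCC1-DT: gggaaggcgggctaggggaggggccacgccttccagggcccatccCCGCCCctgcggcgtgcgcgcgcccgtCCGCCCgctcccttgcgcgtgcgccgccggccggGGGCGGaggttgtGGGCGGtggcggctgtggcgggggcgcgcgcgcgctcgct
RNASEH1-DT: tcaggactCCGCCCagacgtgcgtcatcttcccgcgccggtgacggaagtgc
SPOPL-DT: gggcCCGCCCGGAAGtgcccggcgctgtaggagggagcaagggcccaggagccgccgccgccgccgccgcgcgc
TBC1D22A-DT: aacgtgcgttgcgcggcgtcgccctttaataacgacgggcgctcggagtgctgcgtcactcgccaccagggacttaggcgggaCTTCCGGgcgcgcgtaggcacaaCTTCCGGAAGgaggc
USP38-DT: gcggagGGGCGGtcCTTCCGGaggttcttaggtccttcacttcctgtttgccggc
NUP93-DT: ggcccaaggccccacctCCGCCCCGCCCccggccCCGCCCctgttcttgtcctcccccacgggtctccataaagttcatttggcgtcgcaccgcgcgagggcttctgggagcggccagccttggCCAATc

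Of 27305 promoter windows of 300 bases in that table (250 before the start to 50 after), 484 belong to coding genes of divergent transcripts. Their median G and C content was 67.7% against 58.3% over all windows, and their median number of CG dinucleotides was 30 against 14. GGGCGG was found in 72.5% of them and in 44.6% of all windows, CCGGAAG in 22.7% and 10.7%, CCAAT in 38.8% and 35.7%, and TGACGTCA in 4.75% and 1.98%. TATAAA was found in 4.96% of them and in 11.95% of all windows, and TGACTCA in 1.45% and 4.92%. These shares describe the letters of the windows, count both strands, and draw on no measured value. The 27305 windows include those of noncoding genes, divergent transcripts among them, whereas the 484 all belong to protein-coding genes. Shares over windows of protein-coding genes alone were not taken, so these values do not set divergent promoters apart from other coding promoters.

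The genes differ in how far their counts can be read as their own. The divergent transcripts spanned a median of 16909 bases (187 to 761213) in hg19 coordinates, introns included, and their starts lay a median of 216 bases from the coding gene's start. Of the 583, 580 lie on the opposite strand to the coding gene, 510 start within 2000 bases of its start, and 278 overlap the coding gene itself. In the table a gene nested in another never had more counts than its host, in 3520 of 3520 pairs on the same strand and 6889 of 6889 on opposite strands, so a read seems to count for each gene it touches, on either strand. A divergent transcript that overlaps another gene therefore includes that gene's reads. For this reason the 157 with no overlapping gene that holds at least 0.1 of their own mean count, called unoverlapped here, carry the results below, and the other 426 are described beside them.

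A filter on low counts left 524 of the 583 for testing, and 123 of the 157 unoverlapped. Counts of the 157 were low, with a median of 20.8 per library (0.625 to 1466). Per kilobase of gene span, the tested unoverlapped transcripts had a median level of 0.0947 CPM, against 0.772 CPM for their coding genes, and 109 of 121 were below the coding gene. TBC1D22A-DT, beside a gene with a Rab GTPase regulator domain, had the highest level at 4.09 CPM per kilobase. ZMPSTE24-DT (2.19), ZNF778-DT (1.10), KDM7A-DT (0.987) and CKAP2-DT (0.973) were also among the 6 highest on the same scale. Of those named, TBC1D22A-DT and KDM7A-DT were above their own coding genes, which averaged 0.200 and 0.294 CPM per kilobase. Coding gene spans are long and mostly intron, so this scale sets a short transcript high against them.

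**Figure D1:**
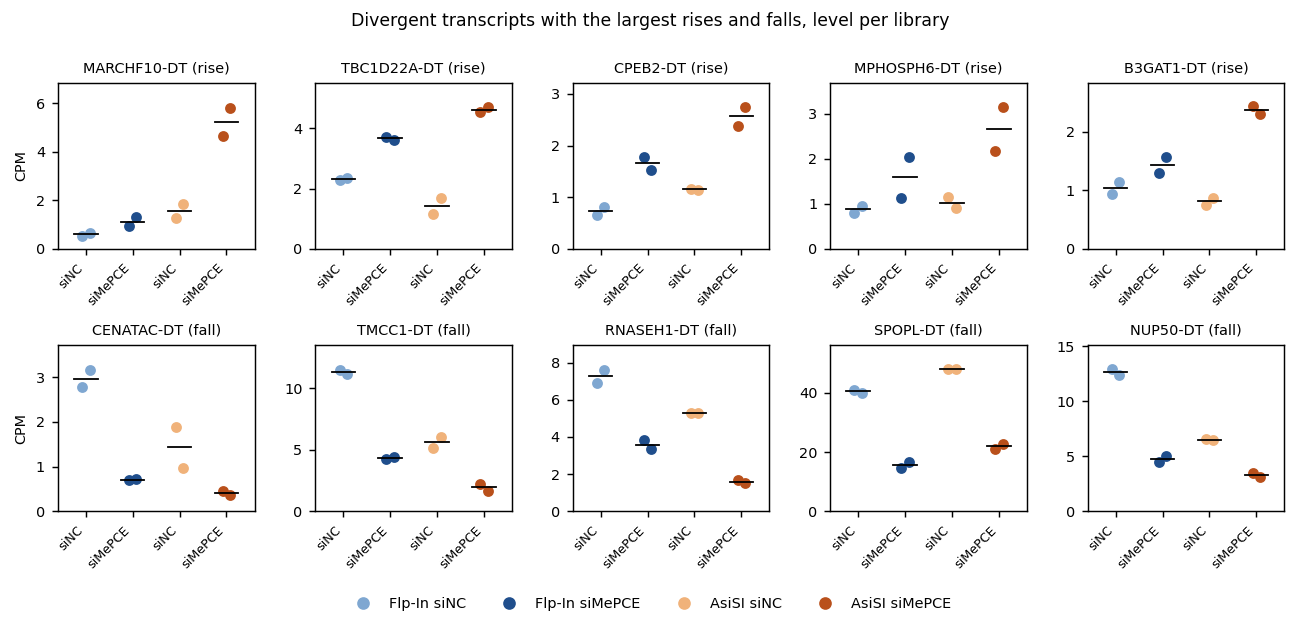
Level of 10 unoverlapped divergent transcripts, the 5 largest rises and the 5 largest falls in the average of both lines among those with a mean of at least 1 CPM and with groups that do not overlap in either line. The y axis of each panel is CPM from 0, points are the single libraries coloured by group, and bars are group means of 2 libraries. SPOPL-DT sits between 14.5 and 48.1 CPM, and the panels differ in scale.

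With siMePCE the unoverlapped transcripts moved in both directions, by the counts of calls given below. Named transcripts had a mean of at least 1 CPM, were called, and had groups that do not overlap in either line. Their 8 largest falls were of 2.01- to 3.83-fold and their 8 largest rises of 1.79- to 2.48-fold. The rule took 8 each way, from 19 falls and 10 rises that met it, so the even split is no finding. The median over all 123 was near 0. Separate groups were part of this choice and are no finding about the transcripts so chosen. Averaged over both lines, 24 of 123 rose and 32 fell, with a median log2 fold change of -0.04 and a middle range from -0.65 to 0.57. These calls used edgeR's quasi-likelihood test on all genes of the table with a Benjamini-Hochberg adjusted p under 0.05. By the same test 29.3% of all genes without an overlapping gene rose and 26.9% fell, and 56.2% were called in either direction, against 45.5% of the unoverlapped transcripts. Over all 524 tested divergent transcripts 102 rose and 155 fell, where 25.2% of all genes tested rose and 27.2% fell. In bulk RNA, fewer cells of a type and less RNA per cell cannot be told apart.

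The coding genes of these transcripts fell more often than they rose, with 244 lower and 152 higher of 573 tested, and 40.7% of all protein-coding genes fell. Other noncoding RNAs without an overlapping gene went the other way: of all 4900 tested genes not listed as protein-coding, 33.8% rose and 10.6% fell, with a median of 0.56. Unoverlapped LINC RNAs, which lie between genes, had 42.3% higher and 13.2% lower among 515. No test compared these shares. The share of all counts on the 157 unoverlapped transcripts was 0.0345% and 0.0346% in Flp-In cells with siNC, against 0.0239% and 0.0267% with siMePCE. In AsiSI cells it was 0.0327% and 0.0331% with siNC and 0.0282% and 0.0296% with siMePCE, so the groups did not overlap in either line. The share on all divergent transcripts, overlapping ones included, went the other way. It was 0.772% and 0.805% in Flp-In cells with siNC, against 0.983% and 0.908% with siMePCE. In AsiSI cells this larger share was 0.816% and 0.807% with siNC, against 0.946% and 0.971% with siMePCE. Transcripts that overlap another gene include that gene's reads.

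**Figure D2:**
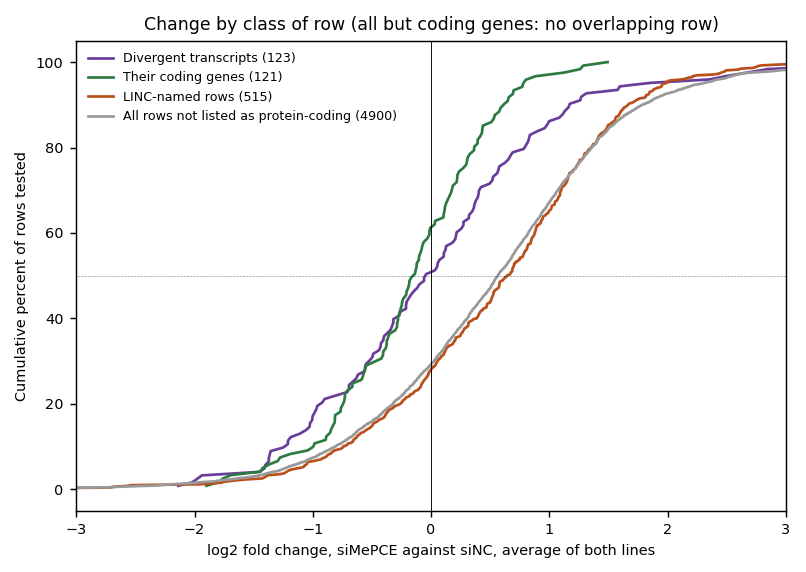
Cumulative percent of tested genes (y axis) by log2 fold change with siMePCE, averaged over both lines (x axis), for the 123 unoverlapped divergent transcripts, 121 of their coding genes, 515 LINC RNAs and all 4900 genes not listed as protein-coding, in each class but the coding genes without an overlapping gene. The curve of the divergent transcripts crosses 50% at -0.04, that of the 4900 genes at 0.56.

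CENATAC-DT had the largest fall among the more abundant unoverlapped transcripts. It spans chr11:118865534-118868714 (hg19, minus strand) beside CENATAC, whose protein takes part in splicing of minor introns. In Flp-In cells it was at 2.77 and 3.16 CPM with siNC and 0.689 and 0.724 with siMePCE, and in AsiSI cells at 1.90 and 0.970 against 0.451 and 0.360. The siMePCE libraries were below the siNC libraries in both lines, as required for naming it. The fall was 3.83-fold on average (log2 -1.94, SE 0.255, edgeR adjusted p = 1.77e-06). CENATAC itself fell by 1.76-fold, so the transcript's count as a percent of the coding gene's count went from 5.22 and 5.71 to 2.52 and 2.73 in Flp-In cells.

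TMCC1-DT (chr3:129612631-129637422, plus strand) lies beside TMCC1, a coiled-coil protein of the endoplasmic reticulum. Its level was 11.5 and 11.1 CPM in Flp-In siNC and 4.26 and 4.45 in siMePCE libraries. In AsiSI cells it was 5.17 and 6.03 against 2.21 and 1.67. No library of a siMePCE group reached the siNC group of its line, as required for naming it. The average fall was 2.74-fold (log2 -1.45, SE 0.133, edgeR adjusted p = 9.91e-09), whereas the average log2 fold change of TMCC1 was 0.03 (SE 0.0611, adjusted p = 0.654).

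RNASEH1-DT (chr2:3605965-3612432, plus strand) lies beside the gene for RNase H1, which cuts RNA in RNA-DNA hybrids. It was at 6.92 and 7.63 CPM in Flp-In siNC against 3.81 and 3.35 in siMePCE, and at 5.29 and 5.27 in AsiSI siNC against 1.67 and 1.53. Both lines showed separate groups, as required for naming it, and the average fall was 2.59-fold (log2 -1.37, SE 0.139, edgeR adjusted p = 4.30e-08). RNASEH1 fell by 1.48-fold.

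SPOPL-DT was the most abundant of the transcripts that fell, on a span of 429891 bases (chr2:138829391-139259281, minus strand), beside SPOPL, an adaptor of cullin-3 ubiquitin ligases. Flp-In cells had 40.9 and 40.0 CPM with siNC and 14.5 and 16.8 with siMePCE, and AsiSI cells 47.9 and 48.1 against 21.0 and 22.8. The groups were apart in both lines, as required for naming it, and the average fall was 2.38-fold (log2 -1.25, SE 0.0777, edgeR adjusted p = 2.79e-11). SPOPL moved the other way, with a log2 fold change of 0.30 (SE 0.0691, adjusted p = 0.00109). This transcript gave 1755 of the 14729 counts on unoverlapped transcripts in the first Flp-In siNC library.

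Smaller falls were also among the 8 largest. NUP50-DT, beside a nuclear pore gene, fell by 1.21 on the log2 scale, and CAMSAP1-DT, beside the gene of a protein that binds microtubule minus ends, by 1.02. C2orf49-DT fell by 1.00 while C2orf49 rose by 0.39 on that scale. NUP50-DT, CAMSAP1-DT and C2orf49-DT passed edgeR's test, with adjusted p from 2.81e-08 to 0.000218.

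Among the rises, MARCHF10-DT (chr17:60885814-60913732, plus strand), beside a RING-type ubiquitin ligase gene, was the largest. It was at 0.536 and 0.670 CPM in Flp-In siNC against 0.932 and 1.32 in siMePCE libraries, and at 1.29 and 1.86 in AsiSI siNC against 4.66 and 5.81. The average rise was 2.48-fold (log2 1.31, SE 0.211, edgeR adjusted p = 2.27e-05), and MARCHF10 rose by 1.53-fold. The counts behind it were few, 23 and 28 in the Flp-In siNC libraries, and the rise in Flp-In cells alone (log2 0.90, adjusted p = 0.0325) was not called without the first or the second siNC library of that line (edgeR adjusted p = 0.205 and 0.065) or without the second siMePCE library (0.255), nor with only the 4 Flp-In libraries in the fit (0.0544).

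TBC1D22A-DT (chr22:47157776-47158510, minus strand) is a short transcript of 735 bases. It was at 2.28 and 2.35 CPM in Flp-In siNC against 3.71 and 3.62 in siMePCE, and at 1.17 and 1.69 in AsiSI siNC against 4.53 and 4.71. The groups did not overlap in either line, as required for naming it. The average rise was 2.26-fold (log2 1.17, SE 0.163, edgeR adjusted p = 3.51e-06), while TBC1D22A fell by 1.22-fold. In Flp-In cells alone the log2 fold change was 0.66 (adjusted p = 0.0241), and it missed the threshold when any 1 Flp-In library was left out (0.076 to 0.135) or without the filter on low counts (0.0517).

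CPEB2-DT (chr4:14911585-15003961, minus strand) lies beside CPEB2, which binds the 3′ ends of mRNAs and regulates their translation. Both rose: the divergent transcript by 2.24-fold (log2 1.16, SE 0.208, edgeR adjusted p = 8.00e-05), and CPEB2 by 2.82-fold. In Flp-In cells CPEB2-DT went from 0.653 and 0.814 CPM to 1.78 and 1.53, a call lost without the first siNC library (adjusted p = 0.0618), and in AsiSI cells from 1.17 and 1.14 to 2.39 and 2.75. MPHOSPH6-DT rose by 1.11 on the log2 scale, B3GAT1-DT by 1.00, USP38-DT by 0.96, MAGEA6-DT by 0.89 and NUP93-DT by 0.84, with edgeR adjusted p from 3.48e-05 to 0.00677. MPHOSPH6 is a protein bound to the nuclear exosome, B3GAT1 a glucuronyltransferase, USP38 a deubiquitinase, MAGEA6 a cancer-testis antigen and NUP93 a nuclear pore protein. MAGEA genes are near-identical copies that can share reads, and in hg19 MAGEA6-DT starts 71059 bases from the start of MAGEA6, so this entry is uncertain.

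The effects of siMePCE on the unoverlapped transcripts were set side by side for the lines. In Flp-In cells 14 of 123 rose and 27 fell, where 21.8% of all genes without an overlapping gene rose and 22.6% fell. In AsiSI cells 16 rose and 22 fell, where 19.4% rose and 21.7% fell, and in a fit limited to genes of at least 1 CPM 13 rose and 11 fell of 51. The 2 comparisons share no library: 7 transcripts rose in both (5.69%), 15 fell in both (12.2%), and 0 were called in opposite directions. Of all genes without an overlapping gene 12.4% rose in both, 16.1% fell in both and 0.570% were called in opposite directions. Besides those already named, AGA-DT, COPS8-DT, FRG1-DT, KCTD13-DT, PCMTD1-DT, PPP1R3B-DT and ZNF778-DT fell in both lines, and ANKRD17-DT and CNTNAP5-DT rose in both. In Flp-In cells 64 of all 524 tested divergent transcripts rose and 131 fell, where 18.1% of all genes tested rose and 22.7% fell, and in AsiSI cells 67 rose and 115 fell (16.8% and 21.3%). Across the 123, 100 log2 fold changes had the same sign in both lines (Pearson's r 0.53, Spearman's rho 0.72), and across the 51 with a mean of at least 1 CPM, 43 did (r 0.82, rho 0.83). These are 81.3% and 84.3%, and over all genes without an overlapping gene 79.1% and 81.1% had the same sign, shares close to those of the divergent transcripts. These are correlations across genes, which are not independent replicates.

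Single libraries moved these counts. In Flp-In cells the number of rises fell from 14 to 5 or 7 without the first or second siNC library, and to 9 or 4 without the first or second siMePCE library, and the number of falls went from 27 to 17 without the second siNC library. In AsiSI cells it was 10 rises without the first siNC library, and 12 or 14 falls without the first or second siNC library. In Flp-In cells the calls of USP38-DT and MAGEA6-DT were lost without the first siNC library (edgeR adjusted p = 0.0869 and 0.052) or the second siMePCE library (0.125 and 0.0631). The counts for the average kept within 19 to 25 rises and 24 to 33 falls over the 8 leave-outs.

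**Figure D3:**
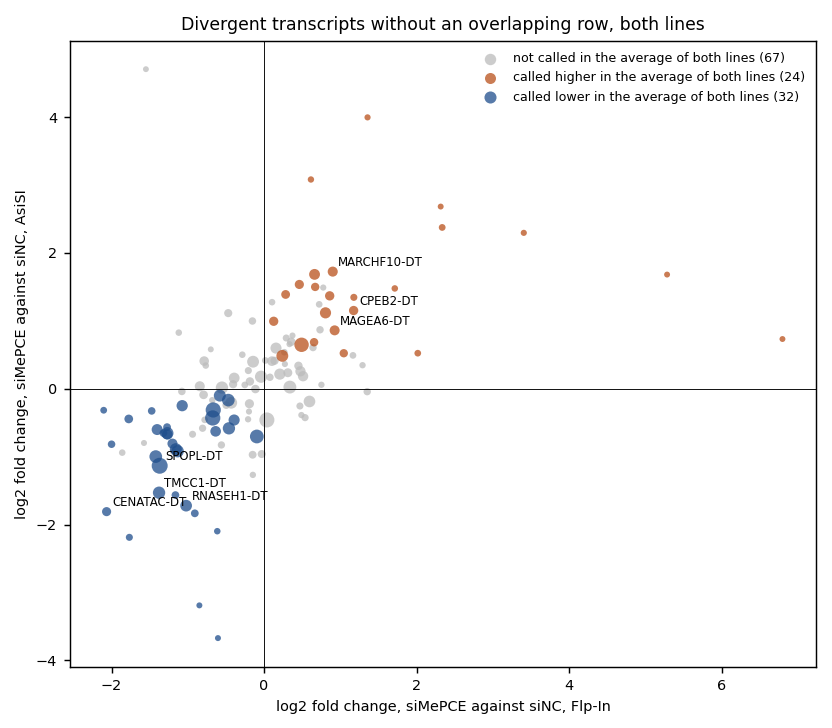
Log2 fold change with siMePCE in Flp-In cells (x axis) and in AsiSI cells (y axis) for the 123 tested unoverlapped divergent transcripts. Point size grows with the mean level and colours mark calls in the average of both lines (24 higher, 32 lower). Of the 123, 100 had the same sign in both lines.

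In Flp-In cells CRIM1-DT and COPS8-DT were also among the 5 largest falls. CRIM1-DT, beside the gene of a membrane protein that binds bone morphogenetic proteins, was at 2.05 and 2.30 CPM in Flp-In siNC and 0.851 and 0.414 in siMePCE libraries (log2 -1.78, SE 0.376, edgeR adjusted p = 0.00069). In AsiSI cells it was at 1.21 and 0.760 against 0.676 and 0.766, which did not pass (log2 -0.44, adjusted p = 0.394). The difference between the lines was itself not called (log2 1.33, SE 0.539, edgeR adjusted p = 0.187). COPS8-DT, beside a subunit gene of the COP9 signalosome, was at 4.66 and 6.17 against 2.07 and 2.03 CPM in Flp-In cells (log2 -1.40, adjusted p = 4.08e-05).

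Split by abundance, 51 unoverlapped transcripts had a mean of at least 1 CPM. Of these, 11 rose (21.6%) and 21 fell (41.2%) in the average, with a median log2 fold change of -0.21. In a fit limited to genes of at least 1 CPM, 14 of 51 rose and 18 fell, so the excess of falls was smaller there. Of the 72 below 1 CPM, 13 rose (18.1%) and 11 fell (15.3%), with a median of 0.11. All tested genes without an overlapping gene that are not listed as protein-coding had 45.3% higher and 21.2% lower from 1 CPM up, and 28.7% higher and 5.88% lower below it. By length, 17 rose and 16 fell of the 68 that span at least 5 kb (median 0.19), and 7 rose and 16 fell of the 55 that are shorter (median -0.17). The same genes not listed as protein-coding had 39.6% higher and 9.46% lower in the longer class (median 0.73), and 17.5% higher and 13.6% lower in the shorter (0.04). The promoter windows of coding genes beside unoverlapped transcripts held GGGCGG in 73.1% of 26 whose transcript fell and 52.4% of 21 whose transcript rose, and CCGGAAG in 34.6% and 19.05%. Their median G and C content was 69.3% and 65.0%, and none of these differences was tested.

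The divergent transcripts were then read against the coding genes beside them. Over 121 unoverlapped pairs with both genes tested, the log2 fold changes of transcript and coding gene went together weakly (average of both lines, r 0.19, rho 0.18), and 70 had the same sign. In 262 pairs whose 2 genes overlap, and so share reads, r was 0.52. Between the lines under siNC the unoverlapped pairs had r 0.34 and rho 0.49, with 84 of the same sign. Of the 24 transcripts that rose, 10 lay beside a coding gene that rose and 9 beside one that fell. Of the 32 that fell, 19 lay beside a coding gene that fell and 6 beside one that rose. Beside transcripts that were not called, 28 coding genes fell, 20 rose and 17 were not called. Of all 154 tested coding genes of unoverlapped transcripts, 44.2% fell and 30.5% rose, and no test compared these shares. The 9 that rose beside a falling gene are those of B3GAT1, DYNLL2, IDH3B, PPM1J, PRPF19, TBC1D22A, TLE1, TP53RK and VOPP1. The 6 that fell beside a rising gene are those of C2orf49, EMSY, FRG1, PCMTD1, SPOPL and ZNF778, and these 15 were listed after their values were seen.

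**Figure D4:**
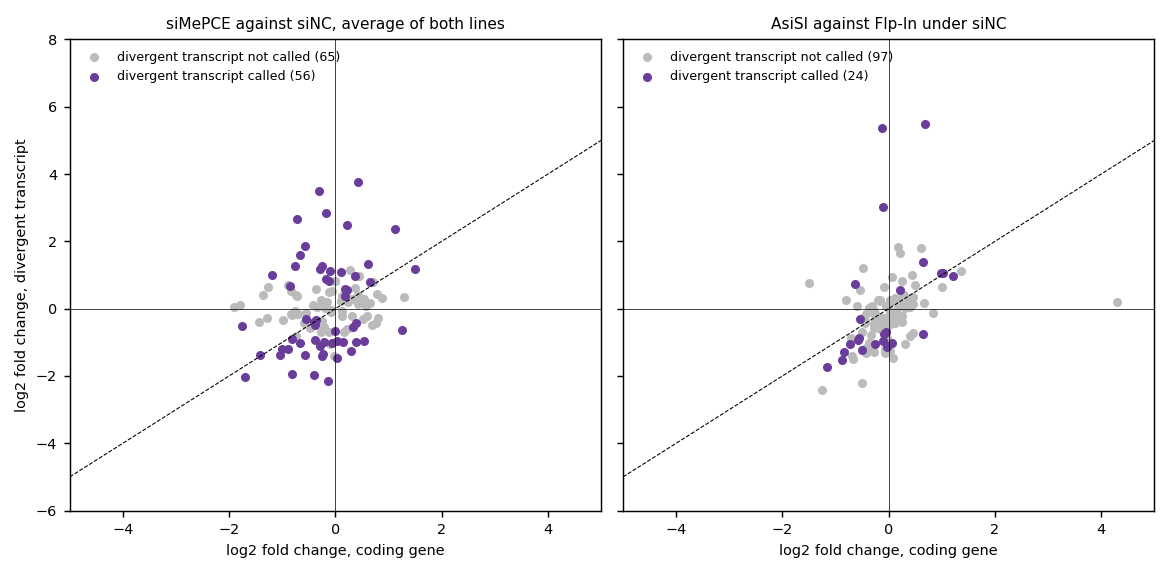
Log2 fold change of each coding gene (x axis) and of its divergent transcript (y axis) for 121 unoverlapped pairs, with siMePCE averaged over both lines (left) and between AsiSI and Flp-In cells under siNC (right). Dashed lines mark equal change, and filled colours mark called transcripts. On the left 70 pairs had the same sign in both genes, on the right 84.

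The ratio of a divergent transcript to its coding gene was tested with limma on log2 of the 2 counts, each with 0.5 added. The fit held the pairs of a divergent transcript and the coding gene of its symbol, called member pairs. It also held other pairs of genes that start within 2000 bases of each other on opposite strands. Member pairs were set by name without that limit. Of all divergent transcripts 73 start more than 2000 bases from the coding gene's start, and 3 lie on its strand. Of 108 unoverlapped member pairs the ratio rose in 24 and fell in 26 in the average, and of all 479 member pairs it rose in 114 and fell in 110. Of the other pairs, which hold no -DT gene, 51.4% were called in either direction, against 46.8% of the member pairs. The pairs behind these shares were chosen in different ways. In Flp-In cells the ratio rose in 74 and fell in 114 of 479 (41.3% of the other pairs were called in either direction), and in AsiSI cells it rose in 82 and fell in 67 (37.8%).

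ZNF778-DT (chr16:89281568-89284061, minus strand), beside a zinc finger gene, had the largest fall of the ratio. Its count was 26.2% and 31.3% of that of ZNF778 in Flp-In cells with siNC and 6.35% and 5.08% with siMePCE, and in AsiSI cells 15.6% and 13.4% against 6.35% and 4.29%. The siMePCE values were below the siNC values in both lines, and the average fall was 3.74-fold (log2 -1.90, SE 0.179, limma adjusted p = 1.92e-06). It joined a fall of the transcript by 0.63 with a rise of ZNF778 by 1.26, both on the log2 scale and both called. Between their starts lie 49 bases of DNA, shown here because the pair had the largest shift, on the strand of ZNF778 (chr16:89217654-89217702, plus strand, GRCh38.p14), with the match to CCGGAAG on the other strand in capitals.
ZNF778-DT: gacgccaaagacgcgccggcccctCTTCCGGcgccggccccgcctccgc

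SPOPL-DT went from 91.1% and 96.3% of the SPOPL count in Flp-In siNC to 26.9% and 31.7% with siMePCE, and from 122% and 127% to 42.6% and 50.8% in AsiSI cells. The fall was 2.93-fold (log2 -1.55, limma adjusted p = 9.79e-09), and the siMePCE libraries were again below the siNC libraries in both lines. TMCC1-DT (log2 -1.49), PCMTD1-DT (-1.49), KCTD13-DT (-1.45) and C2orf49-DT (-1.37) also fell against their coding genes. The KCTD13-DT ratio was not called without the second Flp-In siNC library (limma adjusted p = 0.0697).

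B3GAT1-DT (chr11:134282161-134402119, plus strand) showed the opposite pattern. Its count was 12.4% and 13.5% of that of B3GAT1 in Flp-In cells with siNC and 37.8% and 57.7% with siMePCE, and in AsiSI cells 13.3% and 14.3% against 82.5% and 76.2%. All siMePCE values were above all siNC values, and the ratio rose by 4.55-fold (log2 2.19, SE 0.214, limma adjusted p = 2.71e-06). The ratios of PRPF19-DT (log2 2.79) and IDH3B-DT (2.24) rose as well, beside genes for a spliceosome-associated ubiquitin ligase and a citric acid cycle enzyme, but on few counts. PRPF19-DT had 0 and 6 counts in AsiSI siNC against 16 and 30 in AsiSI siMePCE libraries, so the size of its change depends on the 0.5 that was added.

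**Figure D5:**
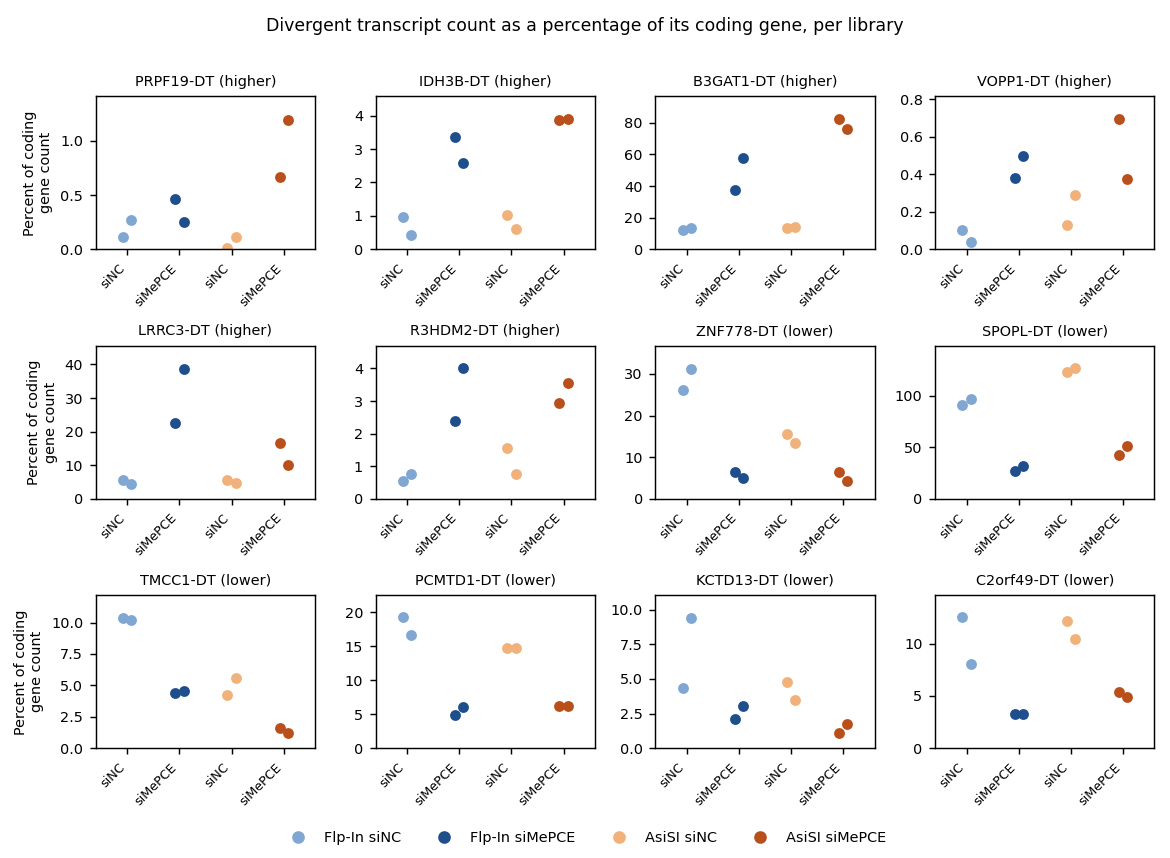
Count of a divergent transcript as a percent of its coding gene's count (y axis of each panel, from 0) in each of the 8 libraries, coloured by group, for the 6 largest rises and 6 largest falls of the ratio. ZNF778-DT went from 26.2% and 31.3% to 6.35% and 5.08% in Flp-In cells, and B3GAT1-DT from 12.4% and 13.5% to 37.8% and 57.7%.

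Whether the effect of siMePCE on the divergent transcripts differed between the lines was tested as the difference of the effects, AsiSI minus Flp-In. Among the 123 unoverlapped transcripts edgeR called 0, where 5.19% of all genes without an overlapping gene were called. DESeq2 gave an adjusted p to only 46 of the 123 and called 0 of these. With a replicate block edgeR called 1, TBC1D22A-DT (log2 1.03, adjusted p = 0.0494, against 0.0839 without the block). At an unadjusted p under 0.05 edgeR had 18 of the 123 (13 higher and 5 lower). At that threshold it had 2505 of the 12108 tested genes without an overlapping gene. Over all 524, 12 were called higher and 1 lower, where 2.51% of all genes tested were called higher and 1.66% lower. All 13 overlap another gene.

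A last comparison, within siNC libraries, set AsiSI cells treated with 4-OHT against Flp-In cells. Of the 123 unoverlapped transcripts 9 were higher and 16 lower in AsiSI cells, where 16.3% of all genes without an overlapping gene were called higher and 16.3% lower. Without the second Flp-In siNC library 5 were higher and 10 lower, and without the first 10 were lower. Among all 524, 51 were higher and 86 lower, against 14.4% and 15.1% of all genes tested. The line and 4-OHT cannot be told apart here.

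COP1-DT (chr1:176176480-176417055, plus strand), beside the gene of the ubiquitin ligase COP1, differed most. It was at 5.11 and 4.81 CPM in Flp-In siNC and at 34.4 and 46.5 in AsiSI siNC libraries, an 8.16-fold higher level (log2 3.03, SE 0.202, edgeR adjusted p = 3.39e-10). COP1 itself did not pass (95.6 and 89.4 against 90.0 and 81.8 CPM, log2 -0.11, adjusted p = 0.397). With siMePCE COP1-DT was at 3.71 and 6.47 CPM in Flp-In and 25.8 and 33.1 in AsiSI cells, so the 2 lines were apart under both siRNAs.

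MARCHF10-DT was also higher in AsiSI cells (log2 1.39, edgeR adjusted p = 0.00196). KDM7A-DT (1.07), beside a histone demethylase gene, and KLHL7-DT (1.06), beside another adaptor of cullin-3 ligases, were called as well. The KDM7A-DT call was lost without the second Flp-In siNC or the first AsiSI siNC library (adjusted p = 0.0667 and 0.119), and the KLHL7-DT call without the first Flp-In siNC or the second AsiSI siNC library (0.232 and 0.121). GAS6-DT, beside the gene of a ligand of TAM receptor kinases, was lower in AsiSI cells: 3.54 and 4.21 CPM in Flp-In siNC against 1.21 and 1.14 (log2 -1.72, edgeR adjusted p = 6.80e-05). GAS6 itself was lower too, by 2.25-fold. ZNF236-DT (log2 -1.53), NUP93-DT (-1.22) and CRIM1-DT (-1.15) followed, the last 2 with calls lost without either Flp-In siNC library or the second AsiSI siNC library (adjusted p from 0.0583 to 0.201).

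Divergent transcripts beside zinc finger genes, taken from the members by the start of the coding gene's symbol, numbered 26, of which 21 were tested. In the average of both lines edgeR called 11 of the 21 lower and 0 higher, where 27.2% of all genes tested were lower and 25.2% higher, with a median log2 fold change of -0.62 against 0.05 over all genes tested. At an unadjusted p under 0.05, 12 were lower and 0 higher, and DESeq2 called 11 lower and 0 higher. In Flp-In cells 9 fell and in AsiSI cells 8 fell, where 22.7% and 21.3% of all genes tested fell. The count in AsiSI cells was 5 or 4 without the first or second AsiSI siNC library and 4 without the second AsiSI siMePCE library. In the average and in AsiSI cells 1 was called higher without the second AsiSI siNC library (ZNF692-DT), and another with only genes of at least 1 CPM in the fit (ZBTB44-DT), both named after their values were seen. Their coding genes were split, with 6 higher and 9 lower. Only 8 of the 21 were unoverlapped, of which 4 fell, ZNF778-DT among them. ZNF584-DT (log2 -1.37), ZNF496-DT (-1.16), ZNF8-DT (-0.77) and ZNF691-DT (-0.61) fell as well, and each overlaps another gene.

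The other lists held few members. Of the 40 DNA repair genes listed 0 had a -DT gene, and of the 42 cell cycle and replication genes listed 2 did. These lists are chosen sets and do not hold all genes of a process, so others of its genes can have one. CKAP2-DT, beside a gene of the mitotic spindle, fell with a log2 fold change of -0.90 (edgeR adjusted p = 0.0263), and RB1-DT was not called. DESeq2 did not call CKAP2-DT (adjusted p = 0.0578), and its call was lost without the second library of each of the 4 groups in turn (edgeR adjusted p from 0.0531 to 0.109). Of the transcription list, NUP50-DT fell and CDK13-DT was not called. Of the stress list, DUSP5-DT, beside a MAP kinase phosphatase gene, had a log2 fold change of 0.81, SLC20A1-DT, beside a phosphate transporter gene, of -0.86, and IRF2-DT, beside an interferon regulatory factor gene, of -0.71. These 3 overlap other genes, and the IRF2-DT call was lost with DESeq2 (adjusted p = 0.0597) and in 5 of the 8 leave-outs (0.0502 to 0.101).

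Of the transcripts that overlap another gene, MTUS1-DT rose most, by 2.43 on the log2 scale. It was at 4.03 and 4.64 CPM in Flp-In siNC against 15.8 and 13.0 with siMePCE, and at 1.54 and 1.03 in AsiSI siNC against 10.9 and 11.3. MTUS1, a microtubule-associated protein gene, rose by 0.93 on that scale. NOVA1-DT, beside a neuronal splicing factor gene, had far higher counts: 243 and 232 CPM against 581 and 644 in Flp-In cells, and 381 and 377 against 874 and 994 in AsiSI cells. NOVA1-DT rose by 1.34, but the microRNA host gene MIR4307HG lies across it with 0.81 of its mean count, so the 2 cannot be told apart. The falls of DPP3-DT (log2 -2.11), PRMT5-DT (-1.91) and PAQR5-DT (-1.77) and the rise of SEC61G-DT (1.17) likewise involve overlapping genes with 1.97 to 13.95 times their mean count.

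The factors that end and degrade divergent transcripts were read from lists of their genes. Of 15 Integrator subunits 10 fell and 2 rose in the average: INTS1 by 1.33, INTS5 by 0.96, INTS11, the catalytic subunit, by 0.95 and INTS8 by 0.70 on the log2 scale. Of 17 cleavage and polyadenylation factors 8 fell and 3 rose, and CPSF1 fell by 1.39, CPSF4 by 0.85, CPSF3, the endonuclease, by 0.74 and the poly(A) polymerase PAPOLA by 0.70. Of 13 nuclear exosome genes 5 fell and 3 rose, with EXOSC6 at -0.75 and EXOSC10, a nuclear 3′ exonuclease, at -0.56. The adaptors that bring RNA to the exosome had 6 higher and 2 lower of 10, with RBM7 at 0.67 and ZCCHC7 at 0.47, while PABPN1 fell by 1.00. Cap-binding and related termination factors had 1 higher and 4 lower of 8, with NCBP1 at -0.41, ZC3H4 at -0.44 and PHAX at 0.46. The genes listed for U1 snRNP, not all of them particular to it, had 5 higher and 2 lower of 10. SNRPE and SNRPD2 were both at 0.37, SNRPC at 0.22 and SNRNP70 at -0.21, and SNRPA, at 0.01, was not called. By line, 6 of the 10 were called higher and 0 lower in Flp-In cells, and 0 higher and 2 lower in AsiSI cells. The difference of the effects was called for 0 of the 10. Among all protein-coding genes tested 24.4% rose and 40.7% fell in the average, 20.4% and 34.2% in Flp-In cells, and 16.8% and 35.0% in AsiSI cells. Of these genes INTS5, INTS8, CPSF1, CPSF4, EXOSC10, RBM7, PABPN1, ZC3H4, SNRPD2, SNRNP70 and SNRPA overlap another gene with 0.101 to 5.06 times their own mean count. All of these are RNA levels, and the part of these factors in the levels of divergent transcripts was not tested.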

How the data were processed

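A directional kit was used for RNA-seq after ribosomal RNA removal, per the labels' protocols. STAR, featureCounts, SAMtools, Trim Galore and FastQC and the build hg19 stand in the submitters' processing notes, without versions or settings. The deposited file holds raw counts per gene from the authors, with gene spans that include introns, and no value column lacked a sample (0). Most low counts were even (80.0% of the 544 values from 1 to 20 in unoverlapped divergent transcripts), so both mates of most fragments appear to have been counted, and a count is up to 2 reads per fragment.

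Identifiers were matched to symbols with the reference tables, and 40783 of 80311 genes had one. Genes passing edgeR's expression filter were fitted with edgeR 4.0.16 (R 4.3.3) as 4 group means, with TMM scaling and the quasi-likelihood test. The contrasts read were 5: siMePCE against siNC in each line, their average, their difference, and the lines under siNC. P-values were adjusted over all genes tested by the Benjamini-Hochberg method, with a threshold of 0.05. CPM are counts scaled to 1000000 per TMM-scaled library total. Ratios of a transcript to its coding gene were fitted with limma 3.58.1 on counts with 0.5 added, in pairs with mean counts of at least 10. DESeq2 1.42.0, other scalings and filters, a replicate block and the omission of each library were run as alternatives. The fits were tested on simulated data.

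Genes were named by rule: unoverlapped, called, at least 1 CPM on average and with groups that do not overlap, the 8 largest rises and falls in the average, 5 and 5 in each line, and 4 and 4 in the other contrasts. The rule added the 3 and 3 largest changes of overlapping transcripts, the 6 and 6 largest ratio changes, the 6 highest levels per kilobase, and up to 4 genes per list. Among the genes so named, 1 is not reported here. The members, lists and rules were chosen with earlier results of these data known. Promoter sequences are from RefSeq (GRCh38.p14), matched by symbol for 435 divergent transcripts and 484 coding genes.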

Additional observations from a re-analysis of the deposited data

Results flagged for a closer look

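The 13 divergent transcripts whose response to siMePCE differed between the lines are given here because the difference of the effects, AsiSI minus Flp-In, passed edgeR's test (adjusted p under 0.05). They were named after their values were seen, and each overlaps another gene. MTUS1-DT had the largest difference, 1.39 on the log2 scale, with rises in both lines (log2 1.73 in Flp-In and 3.12 in AsiSI cells, adjusted p of the difference 0.00492). ERRFI1-DT, beside a gene that inhibits the EGF receptor, differed by 1.21. It was at 5.15 and 4.04 CPM in Flp-In siNC against 3.20 and 4.26 with siMePCE, and at 4.00 and 4.33 in AsiSI siNC against 7.43 and 8.22.

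HEATR6-DT, with a difference of 1.10, fell in Flp-In cells (log2 -0.46) and rose in AsiSI cells (0.64), and DDHD1-DT, with 0.61, likewise fell (-0.31) and rose (0.30). WDR11-DT differed by 0.99, with a log2 fold change of -0.03 in Flp-In cells, which did not pass, and 0.96 in AsiSI cells. EDIL3-DT differed by 0.97 and CTCF-DT by 0.53, and both fell in both lines, further in Flp-In cells. The differences of EOLA2-DT (0.85), AHI1-DT (0.78), NUDT16-DT (0.75), NEMP2-DT (0.71) and TOMM20L-DT (0.62) were in the same direction. RRS1-DT, beside a ribosome biogenesis gene, was the single one with a lower value in AsiSI cells (-0.815): it rose by 1.11 in Flp-In and by 0.30 in AsiSI cells, and RRS1 lies across it with 0.78 of its mean count.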

How the results depend on the processing

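Of 70 tests of named genes that were called, 57 stayed called with the same direction under every alternative run, and 13 missed the threshold under 1 or more; none changed sign. The 2 tests that were not called stayed so. All values below are percents of the tested transcripts or pairs that were called. Over the 8 leave-outs, rises were 6.53% to 13.1% in Flp-In (all libraries 12.2%) and 8.40% to 11.8% in AsiSI cells (12.8%), and falls in AsiSI cells 14.2% to 21.3% (21.9%). For the difference of the lines they were 0.745% to 2.25% higher (2.29%) and 0.186% to 0.373% lower (0.191%). For AsiSI against Flp-In under siNC they were 6.34% to 9.94% higher (9.73%) and 10.5% to 17.4% lower (16.4%). Ratios were 8.65% to 17.3% higher in Flp-In cells (15.4%) and 8.32% to 13.9% lower in AsiSI cells (13.99%).

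With a mean of at least 1 CPM, 25.4% rose and 24.5% fell in AsiSI cells (12.8% and 21.9% of all tested), the difference had 5.83% higher and 0.292% lower, and the lines under siNC differed by 16.3% higher and 25.7% lower. With DESeq2 the difference had 4.98% higher (16 of 321) and 0.935% lower, and with no count filter 0.343% lower. Of transcripts that touch no gene, 13.0% fell in AsiSI cells, the lines differed by 4.35% higher and 9.78% lower, and the difference of effects had 0 called, as it had for unoverlapped transcripts. Ratios rose in 10.2% of unoverlapped pairs in Flp-In cells. Halving all counts, an alternative chosen after seeing the data, left each count of calls within 1.5 times. Deviations of same-numbered libraries from their group means correlated weakly between groups, and all correlations were positive (0.0427 to 0.155). These values do not settle whether the replicate numbers pair the libraries. Over all genes tested, a replicate block raised the edgeR calls for the difference from 1808 to 2912. With a replicate block the difference had 4.01% higher (21 of 524) and 0.573% lower, 1 unoverlapped transcript was called for it where 0 were without the block, and the other percents stayed within 1.5 times. Low counts limit the unoverlapped transcripts, with a median of 20.8 per library.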
